A study of Mus musculus with 6 samples.

Results

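Setd7 and 4 related SET genes, Setd1b, Setd2, Setd3 and Setd5, were followed on 6 Affymetrix arrays that compared a hairpin against Atoh8 with a scrambled hairpin. They are 5 of the 18193 genes that could be named, and every probe set annotated with that symbol alone was taken, which gave 10 of 45037 probe sets. Where a gene had several, the probe set with the highest mean signal over the 6 arrays is called the main one. Setd7 was chosen by its log2 difference between the hairpins on these arrays and the other 4 by kinship with it, so the differences between hairpins are given for all 5 as a description, without a test.

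All samples were of mPAC L20, a line of mouse pancreatic duct cells, infected with an adenovirus (Ad.CMV.Neurog3) that expresses Neurog3, the factor that sets pancreatic progenitors on the endocrine path. The 3 shAtoh8 samples had first received an adenovirus with a short hairpin specific for Atoh8, also called Math6, a transcription factor of the basic helix-loop-helix class. The 3 shControl samples had received the scrambled hairpin in the same way. The multiplicity of infection was 40 for either virus, on 250000 seeded cells. Exposure lasted 4 h to the hairpin virus and then 1.5 h to the virus with Neurog3, and cells were kept for another 44 to 46 h. Both groups thus carried Neurog3 and a hairpin virus, no sample lacked either, and all came from a single cell line. Each replicate number is a separate biological experiment, as the labels describe it.

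A SET domain transfers methyl groups from S-adenosylmethionine to lysine, most often on histone tails. Setd7 monomethylates lysine 4 of histone H3 and many other proteins, and in mouse islets it has been tied to the activity of Pdx1. Setd1b is the catalytic subunit of a complex that trimethylates the same histone residue at promoters. Setd2 places trimethylation on lysine 36 of histone H3 along transcribed genes, Setd3 methylates a histidine of actin despite its kinship with lysine methyltransferases, and Setd5 works with corepressor complexes, while its own methyltransferase activity is debated.

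Values are log2 signals after RMA, a procedure that corrects background, equalises the distributions of the arrays and summarises the probes of a set. A level can be compared between arrays but not between probe sets. Array medians lay between 5.49 and 5.56. The shAtoh8 replicate 2 array had the weakest hybridisation spikes (9.05, against 9.44 to 9.69 on the other 5) and the largest 3' over 5' excess of actin signal (0.354, with 0.107 to 0.202 elsewhere), so values without it are given where they matter. Duct and epithelial markers were bright (Krt19, Krt8, Krt18 and Cdh1 averaged 11.80 to 13.91 in shAtoh8 and 11.94 to 13.85 in shControl), while Cftr, a chloride channel of ducts, read 3.72 in shAtoh8 and 3.70 in shControl, and Onecut1 and Cldn4 also lay under the array medians. Atoh8 itself read 7.83, 7.90 and 7.37 in shAtoh8 replicates 1, 2 and 3, against 8.75, 8.29 and 7.52 in shControl, a difference of -0.49 ± 0.30 (SE) that did not pass (limma adjusted p = 0.573, and 0.157 with the replicate numbers as blocks). Neurog3, which the virus supplied to both groups, read 6.78, 6.06 and 5.33 in shAtoh8 replicates 1, 2 and 3 on its main probe set, against 7.45, 6.64 and 5.79 in shControl. The groups overlapped, all 3 pairs were lower in shAtoh8 (-0.67, -0.58 and -0.46), and the difference of -0.57 passed with the replicate block (limma adjusted p = 0.0330) but not without it (0.706). Its other probe set read 0.18 ± 0.17 (SE). Whether the level of Neurog3 plays a part in the Setd7 difference was not tested.

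Setd7 was lower in every shAtoh8 sample on its main probe set. That probe set (1435437_at) read 7.83, 8.07 and 7.48 in shAtoh8 replicates 1, 2 and 3, against 9.81, 9.62 and 9.73 in shControl. The groups did not overlap: the highest shAtoh8 array stood at 8.07 and the lowest shControl array at 9.62. The means were 7.80 ± 0.30 in shAtoh8 and 9.72 ± 0.10 in shControl (SD, n = 3 each), a log2 difference of -1.93 ± 0.15 (SE), or a signal 3.80-fold lower. Within replicate numbers 1, 2 and 3 the difference was -1.98, -1.55 and -2.25, so all 3 pairs ran the same way. With 1 array left out at a time it stayed between -2.06 (without shAtoh8 replicate 2) and -1.77 (without shAtoh8 replicate 3). In RNA from whole cultures, less transcript per cell and fewer cells that make it cannot be told apart. Of the 18193 genes, 2 had a more negative difference on their main probe set. The shAtoh8 arrays spread more widely than the shControl arrays around their mean, and replicate 2 held the highest shAtoh8 value and the lowest shControl value.

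The other Setd7 probe set showed no such gap. It (1423003_at) read 5.16, 5.22 and 5.28 in shAtoh8 replicates 1, 2 and 3, against 5.20, 5.08 and 5.26 in shControl. The groups overlapped, and all 6 values lay below the median of their arrays. The means were 5.22 ± 0.06 in shAtoh8 and 5.18 ± 0.10 in shControl (SD, n = 3 each), a log2 difference of 0.04 ± 0.09 (SE), and the pairs differed by -0.05, 0.14 and 0.01. Without shControl replicate 2 the sign turned, to -0.02. As the mean of both probe sets Setd7 read -0.94 ± 0.09 (SE). For this dimmer set the platform annotation lists a RefSeq transcript of Setd7 as its source sequence, and for the brighter set another GenBank record. Which stretch of the transcript either set reads was not analysed here. RMA values carry no detection call, so whether the dimmer set measured the transcript at all was not tested.

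**Figure D1:**
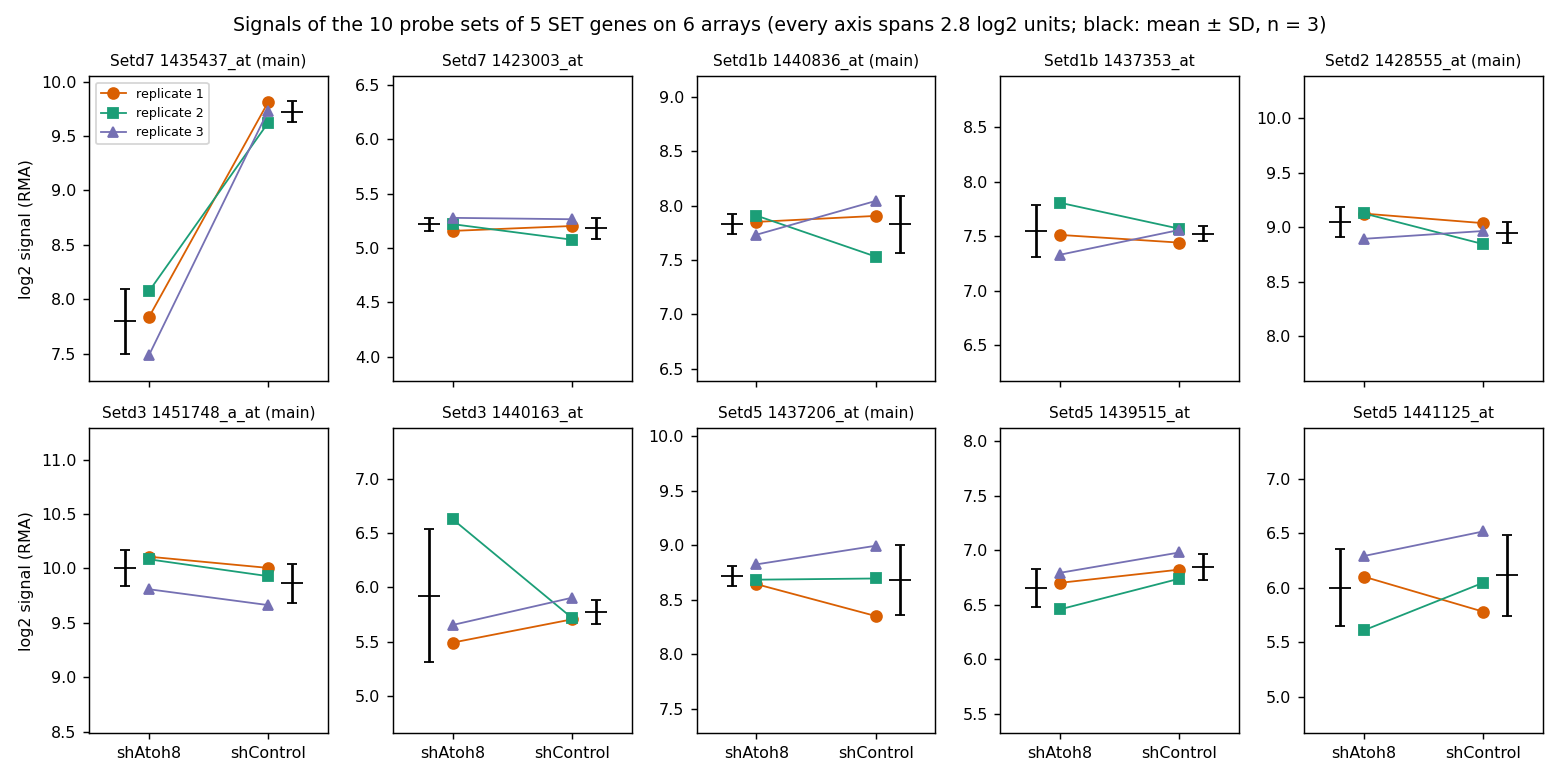
Log2 RMA signal of each of the 10 probe sets in shAtoh8 (left in each panel) and shControl (right), with a line joining arrays of the same replicate number and black marks for the mean ± SD (n = 3 each). The main Setd7 probe set averages 7.80 in shAtoh8 and 9.72 in shControl, whereas the groups overlap on the other 9 probe sets.

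The distance between the Setd7 probe sets was set beside that of other genes. Of the 18193 genes, 9010 had several probe sets, and the gap between the highest and lowest difference of a gene had a median of 0.17 (log2). The gap was 1.96 for Setd7, and 1 gene, Agpat5, had a wider gap, 2.12. Agpat5, an acyltransferase of phospholipid synthesis, read -2.15, -0.55 and -0.03 on its 3 probe sets. The gap was 0.02 for Setd1b, 0.01 for Setd3 and 0.23 for Setd5, and 93.7%, 96.9% and 35.8% of the 9010 genes had a wider gap than these 3 members. The gap comes from the same arrays that singled out Setd7 and is a description.

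**Figure D2:**
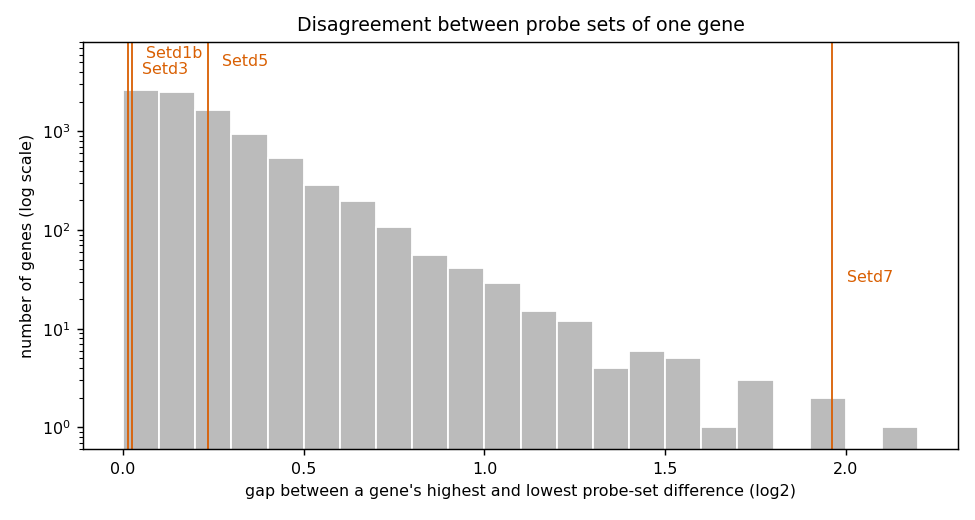
Number of genes (vertical log axis) by the gap between the highest and lowest log2 difference among a gene's probe sets (horizontal axis), over 9010 genes with several probe sets. Vertical lines mark the members; Setd7 lies at 1.96, far to the right of Setd5 (0.23), Setd1b (0.02) and Setd3 (0.01).

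Atoh8 belongs to the helix-loop-helix class, whose members bind E-boxes, so the promoter windows of the SET genes are shown with that motif marked. RefSeq windows (GRCm38.p6) from 250 bases before to 50 after a gene's start were at hand for 4 of the 5 members, Setd7, Setd2, Setd3 and Setd5. The E-box was searched as CANNTG, which reads the same on both strands. Setd7, the member with the large difference, and Setd2, whose single probe set gave overlapping groups, are printed 5′ to 3′ on the strand of the gene (chr3:51560774-51561073, minus strand, and chr9:110532347-110532646, plus strand), with E-boxes in capitals.
Setd7: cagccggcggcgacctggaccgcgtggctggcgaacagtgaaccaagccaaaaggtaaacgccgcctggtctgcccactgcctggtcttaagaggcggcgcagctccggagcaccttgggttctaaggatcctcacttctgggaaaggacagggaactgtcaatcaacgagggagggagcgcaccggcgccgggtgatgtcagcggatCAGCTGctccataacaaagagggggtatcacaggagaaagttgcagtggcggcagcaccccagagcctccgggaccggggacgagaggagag
Setd2: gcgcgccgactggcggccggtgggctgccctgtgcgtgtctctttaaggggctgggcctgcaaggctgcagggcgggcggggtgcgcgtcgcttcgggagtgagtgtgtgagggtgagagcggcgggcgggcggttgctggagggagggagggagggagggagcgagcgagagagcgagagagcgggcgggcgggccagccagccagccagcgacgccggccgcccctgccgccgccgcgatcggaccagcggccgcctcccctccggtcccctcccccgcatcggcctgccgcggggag
The Setd7 window held 1 E-box, CAGCTG, whose first base lies 42 bases upstream of the annotated start. The Setd2 window held 0, both overlapping Setd3 windows held 0, and the Setd5 window held 2 (CATGTG and CACTTG). Of 32851 windows of the same length, 72.3% held at least 1 E-box, and 16.3% held CAGCTG. The motif is therefore common in such windows, and a match describes letters and not binding.

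Setd1b, the other member that methylates lysine 4 of histone H3, stood at almost the same mean signal in both groups. Its main probe set (1440836_at) read 7.85, 7.91 and 7.73 in shAtoh8 replicates 1, 2 and 3, against 7.91, 7.53 and 8.04 in shControl. The shControl arrays spanned the whole shAtoh8 range. The log2 difference was 0.00 ± 0.14 (SE), with -0.06, 0.38 and -0.31 in the pairs. The other set (1437353_at) read 7.51, 7.81 and 7.33 in shAtoh8, against 7.44, 7.57 and 7.56 in shControl, a difference of 0.03 ± 0.13 (SE) with 0.07, 0.24 and -0.23 in the pairs. On both sets the replicate 2 pair was higher in shAtoh8 and the replicate 3 pair lower, so the pairs differed more than the groups. Leaving out shControl replicate 2 moved the main set to -0.14, and leaving out shControl replicate 3 moved it to 0.11. On the other set the difference was -0.10 without shAtoh8 replicate 2.

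Setd2, which marks transcribed gene bodies, had a single probe set (1428555_at). It read 9.12, 9.13 and 8.89 in shAtoh8 replicates 1, 2 and 3, against 9.04, 8.84 and 8.96 in shControl. The groups overlapped, since the lowest shAtoh8 array (8.89) lay below 2 of the 3 shControl arrays. The log2 difference was 0.10 ± 0.10 (SE), with 0.09, 0.28 and -0.07 in the pairs. It stayed positive without any 1 array, between 0.05 and 0.18.

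Setd3, the actin histidine methyltransferase, was slightly higher in shAtoh8 in every pair on its main probe set (1451748_a_at). That set read 10.11, 10.08 and 9.81 in shAtoh8 replicates 1, 2 and 3, against 10.00, 9.93 and 9.66 in shControl. Replicate 3 was the lowest array of both groups, and the groups overlapped. The log2 difference was 0.13 ± 0.13 (SE), and the pairs differed by 0.10, 0.16 and 0.15. Being higher in all 3 pairs was common, at 24.0% of all genes. Without shControl replicate 3 the difference was 0.03, and without shAtoh8 replicate 3 it was 0.23. The dimmer set (1440163_at) read 5.49, 6.63 and 5.66 in shAtoh8, against 5.71, 5.72 and 5.91 in shControl. A single array, shAtoh8 replicate 2, stood above all others, and without it the difference of 0.15 ± 0.28 (SE) became -0.20.

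Setd5, the corepressor-linked member, gave signs that differed between its 3 probe sets. The main set (1437206_at) read 8.64, 8.68 and 8.82 in shAtoh8 replicates 1, 2 and 3, against 8.35, 8.70 and 8.996 in shControl, a difference of 0.04 ± 0.16 (SE). Its sign rested on single arrays: the value was -0.13 without shControl replicate 1, -0.02 without shAtoh8 replicate 3 and 0.19 without shControl replicate 3. The second set (1439515_at) read 6.70, 6.46 and 6.79 in shAtoh8, against 6.82, 6.74 and 6.98 in shControl. It was lower in shAtoh8 in all 3 pairs, by log2 differences of -0.12, -0.28 and -0.19, with a mean of -0.20 ± 0.12 (SE), and the groups overlapped. On their main probe sets 21.5% of all genes were lower in all 3 pairs. The third set (1441125_at) read 6.10, 5.61 and 6.29 in shAtoh8, against 5.78, 6.05 and 6.52 in shControl, a difference of -0.11 ± 0.23 (SE), which turned to 0.08 without shAtoh8 replicate 2 and to 0.09 without shControl replicate 3. Replicate 3 was the highest array of both groups on all 3 sets. The mean of the 3 sets was -0.09.

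**Figure D3:**
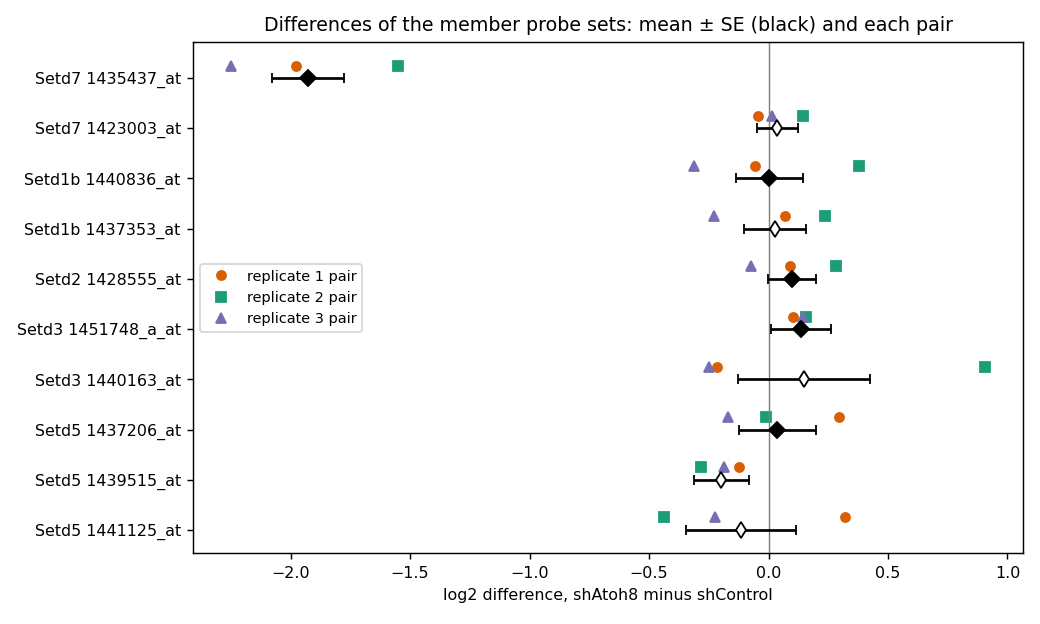
Log2 difference of shAtoh8 minus shControl for the 10 probe sets, as the mean ± SE from limma (black; filled for the main set of a gene) and for each pair of arrays with the same replicate number (coloured). The main Setd7 set lies at -1.93 with all 3 pairs between -2.25 and -1.55, and the other 9 means lie between -0.20 and 0.15.

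Across the 5 main probe sets, 1 member, Setd7, passed the threshold of an adjusted p under 0.05 in limma, and 1.15% of all genes did; with the replicate numbers as blocks the count was again 1, and 4.67% of all genes passed. Setd7 was chosen by its difference in this comparison, so nothing is read from that count. It was 0 without shAtoh8 replicate 1, without shControl replicate 1 or without shControl replicate 2. Over the 10 probe sets the groups did not overlap on 1, where 19.4% of all probe sets had groups without overlap. Members other than Setd7 had main differences of 0.00 to 0.13, each smaller than or close to its standard error in the fit without the block. With the block the SE of the Setd3 difference (0.13) was smaller, at 0.08. These sizes do not show that those 4 genes were the same in both groups.

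The next question was whether other writers of lysine methylation differed between hairpins. Of 32 further SET-domain lysine methyltransferases, 29 had a named probe set, and none passed (0 in limma and 0 with the replicate block, against 5 at an unadjusted p under 0.05). Of all 18193 genes, 3191 had an unadjusted p under 0.05, which is the background for each such count below. Their differences lay between -0.58 and 0.26, 16 positive and 13 negative, with a median of 0.02, beside 0.01 for all genes. The SET1 and MLL genes lay between -0.13 (Kmt2e) and 0.16 (Kmt2d). The Kmt2d value rested on shAtoh8 replicate 2, without which it was -0.11, and its 1 other probe set was negative. Without that array Kmt2b (-0.07), Ehmt2 (-0.03) and Smyd4 (-0.006) turned negative as well, and no negative gene of the list turned positive. The H4K20 methyltransferases were all 3 positive, from 0.09 (Kmt5b) to 0.26 (Kmt5a), though 2 of the other 3 Kmt5a probe sets and 2 of the other 4 Kmt5b probe sets were negative. The 5 H3K9 enzymes ran from -0.58 (Suv39h2) to 0.21 (Ehmt1), the 4 H3K36 enzymes from -0.38 (Nsd2) to 0.10 (Nsd3, negative on 3 of its other 5 probe sets), and the H3K27 enzymes were -0.16 (Ezh2) and -0.07 (Ezh1). The 5 SMYD genes ran from -0.30 (Smyd3) to 0.08 (Smyd4, whose 1 other probe set was negative), with a median of -0.24, and the 4 remaining genes from -0.25 (Prdm2) to 0.07 (Setd6). The groups did not overlap for 8 of the 29 genes, beside 24.0% of all genes. Of these, Kmt2e, Suv39h2, Nsd2, Smyd3 and Smyd2 (-0.28) were lower in shAtoh8, and Kmt5a, Ehmt1 and Nsd3 were higher. Neither Smyd3 nor Smyd2 passed (limma adjusted p = 0.307 for Smyd3 and 0.242 for Smyd2).

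Suv39h2, which methylates lysine 9 of histone H3 in heterochromatin, had the smallest p of these. It read 5.99, 5.70 and 5.63 in shAtoh8 replicates 1, 2 and 3, against 6.47, 6.10 and 6.51 in shControl. The groups did not overlap, as for 24.0% of all genes. The difference of -0.58 ± 0.15 (SE) missed the threshold (limma adjusted p = 0.128, or 0.0565 in the blocked fit). Its other 2 probe sets had the same sign, and as the mean of the 3 it passed, at -0.47 with an adjusted p of 0.0418. Nsd2, an H3K36 dimethyltransferase, read -0.38 ± 0.12 (SE, limma adjusted p = 0.209), and 3 of its other 4 probe sets were positive, with a mean of -0.06 over the 5.

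Subunits of the H3K4 methyltransferase complexes, some shared and some particular to certain complexes, gave no call in limma. The count was 0 of 8, and 0 with the block, against 2 at an unadjusted p under 0.05, and the median was -0.08. Wdr5, the propeller protein that holds the complexes together, read 8.72 ± 0.12 in shAtoh8 and 9.07 ± 0.15 in shControl (SD, n = 3 each; limma adjusted p = 0.192). Rbbp5, its neighbour in the complexes, read 8.19 ± 0.03 in shAtoh8 and 7.96 ± 0.08 in shControl (limma adjusted p = 0.239). The groups did not overlap for either gene, and the signs were opposite. The demethylases of H3K4 and H3K36 gave 0 calls of 10 in limma and 0 with the block, against 1 at an unadjusted p under 0.05 (median -0.02). Kdm5b, which removes methyl groups from H3K4, read -0.46 ± 0.13 (SE, limma adjusted p = 0.178), and 1 of its other 3 probe sets was positive; the mean of the 4 was -0.14. Its relative Kdm5a read 0.14 ± 0.10 (adjusted p = 0.644), with negative values on 3 of its other 5 probe sets. Kdm1a, the H3K4 demethylase LSD1, was named after its value was seen and read 0.04 ± 0.13.

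Among readers of H3K36me3 and partners of Setd2, 1 of 8 genes fell and 0 rose in limma (3 at an unadjusted p under 0.05). It was Psip1, a chromatin reader of that mark also known as LEDGF. Psip1 read 7.89, 8.13 and 7.89 in shAtoh8 replicates 1, 2 and 3, against 8.76, 8.55 and 8.84 in shControl. All shAtoh8 arrays lay below all shControl arrays. The difference was -0.75 ± 0.11 (SE; limma adjusted p = 0.0431, and 0.0385 with the replicate block), its other 2 probe sets had the same sign, and the mean of the 3 sets read -0.46. With shAtoh8 replicate 2 left out Psip1 still passed (0.0492), and leaving out any other array ended the call (adjusted p from 0.121 to 0.138). Leaving out 1 array also cut the calls over all genes, from 210 to between 0 and 117. Such a loss, here and for the genes below, is therefore not particular to the gene.

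Of 8 measured corepressor and PAF complex subunits that bind Setd5, 1 fell and 0 rose in limma (4 at an unadjusted p under 0.05). Tbl1xr1, a WD-repeat subunit of the NCoR corepressor, read 9.33, 9.40 and 9.14 in shAtoh8 replicates 1, 2 and 3, against 9.87, 9.82 and 9.97 in shControl. The groups did not overlap, and 1 of its other 5 probe sets was positive. The difference of -0.60 ± 0.10 (SE) stood just inside the threshold (limma adjusted p = 0.0499, and 0.0424 with the replicate block). Leaving out any 1 of the 6 arrays ended the call (0.0650 to 0.160), as did the mean of its probe sets (0.0588).

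Actins, which Setd3 methylates, and the proteins that bind actin monomers gave 1 fall and 0 rises among 10 genes in limma (2 at an unadjusted p under 0.05). Actb and Actg1, the cytoplasmic actins, read 0.02 ± 0.09 and 0.01 ± 0.07 (SE). Cfl2, an actin-severing cofilin best known from muscle, read 10.72, 10.73 and 10.30 in shAtoh8 replicates 1, 2 and 3, against 11.48, 11.47 and 11.42 in shControl. The shControl arrays lay within a narrow band, all above shAtoh8. The difference was -0.87 ± 0.13 (SE; limma adjusted p = 0.0393, and 0.0240 with the block), both other probe sets had the same sign, and leaving out any 1 array ended the call (0.0534 to 0.160). With the replicate block Pfn2, a profilin, passed as well (-0.53 ± 0.08, SE of the blocked fit; adjusted p = 0.0359, against 0.105 without the block).

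Genes of proteins reported as SETD7 substrates, mostly in human cells, gave 0 calls among 19 measured of 22 in limma and 0 with the block, against 5 at an unadjusted p under 0.05. Of these, 14 were negative and 5 positive, with a median of -0.06. E2f1, a cell cycle transcription factor, read 7.60 ± 0.13 in shAtoh8 and 7.91 ± 0.04 in shControl (SD, n = 3 each; limma adjusted p = 0.193). Hif1a, the oxygen-regulated transcription factor, read 11.12 ± 0.22 in shAtoh8 and 11.52 ± 0.11 in shControl (limma adjusted p = 0.211). Pdx1, the pancreatic factor tied to Setd7 in islets and named after its value was seen, read 9.80 ± 0.10 in shAtoh8 and 9.90 ± 0.27 in shControl, with the opposite sign on its other probe set. These are transcript signals; protein and methylation levels were not measured.

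Over the 7 lists, 92 of 100 genes had a named probe set, 3 fell in limma (3.26%, where 0.638% of all genes fell) and 0 rose (where 0.517% of all genes rose). With the replicate block 4 fell (4.35%, where 2.75% of all genes fell) and 0 rose (where 1.92% rose). With 1 array left out at a time, 0 to 1 fell in limma. The lists were chosen with earlier results of these data known, so nothing is read from these shares. Of the 92, 22 had an unadjusted p under 0.05, where 3191 of all 18193 genes did. The groups did not overlap for 24 of the 92, against 24.0% of all genes. The median difference over the 92 was -0.03, against 0.01 for all genes.

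**Figure D4:**
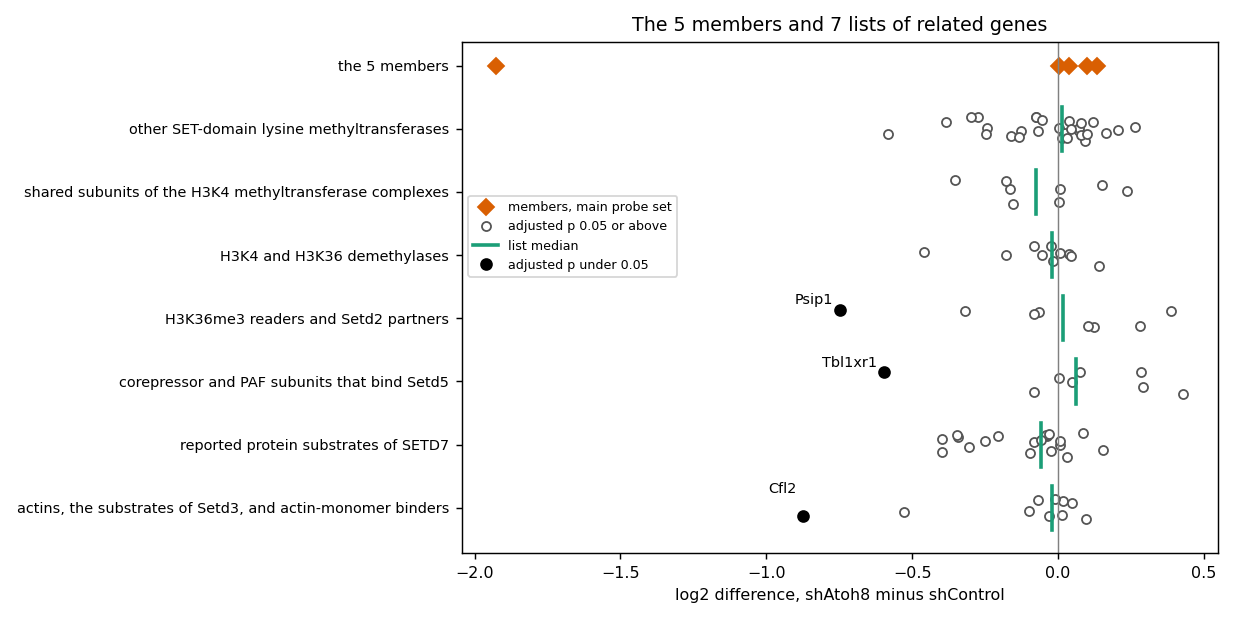
Log2 difference of shAtoh8 minus shControl on the main probe set of the 5 members (diamonds, top row) and of 7 lists of related genes (circles, filled where the limma adjusted p was under 0.05; green bars mark list medians). Setd7 lies at -1.93, outside the range of the listed genes, which runs from -0.87 (Cfl2) to 0.43 (Cdc73), and the 3 filled circles are Psip1, Tbl1xr1 and Cfl2.

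The genes whose array pattern came nearest to that of the main Setd7 probe set were Abcc4, Pcgf3, Man2a1, Lifr and Dennd1b. Likeness was the root mean square distance over the 6 arrays after each probe set was centred on its own mean, and it was 0.13, 0.18, 0.22, 0.25 and 0.26 for these 5. A gene near Setd7 on this measure has a like difference between the groups by construction, so nothing is read from it. Abcc4, a drug and nucleotide exporter, read 8.75, 8.94 and 8.36 in shAtoh8 replicates 1, 2 and 3, against 10.55, 10.42 and 10.88 in shControl. Like Setd7 it had its lowest value in shAtoh8 replicate 3 and its lowest shControl value in replicate 2. Pcgf3, a Polycomb ring finger protein, read -1.98 on its main set and -0.28 and -0.65 on its others. The receptor Lifr read -1.74 on its main set and -0.71 and -0.21 on its others. Dennd1b, a regulator of Rab35, read -1.53 on its main set and between -1.28 and 0.41 on its other 3. Abcc4 and Man2a1, a Golgi mannosidase, each had 1 probe set.

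**Figure D5:**
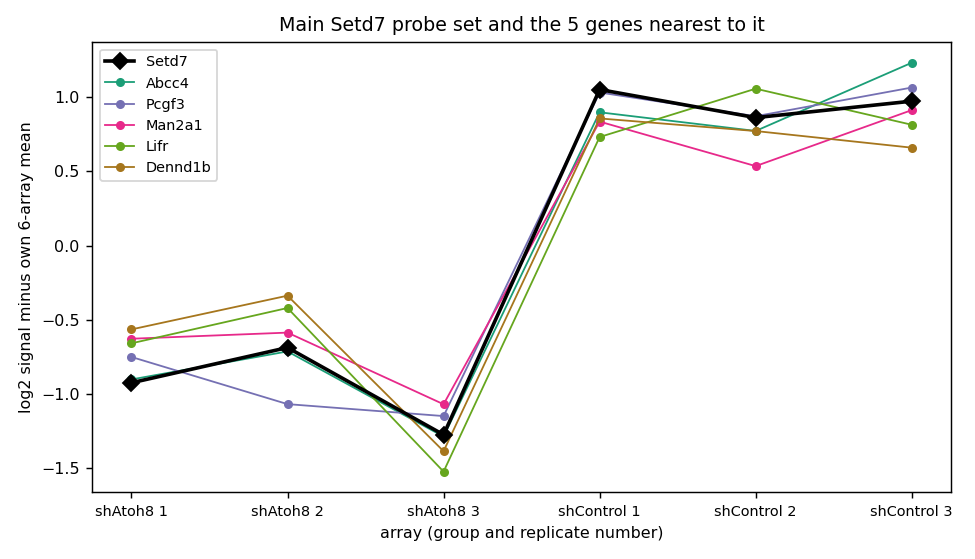
Log2 signal minus the probe set's own 6-array mean, for the main Setd7 probe set (black) and the 5 genes nearest to it, on the 3 shAtoh8 arrays (left) and the 3 shControl arrays (right). All 6 lines lie below 0 on the shAtoh8 arrays and above 0 on the shControl arrays, at distances of 0.13 to 0.26 from Setd7, as the choice by distance fixes.

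Markers of other cell types were read on the same arrays. Of 5 measured leukocyte markers, 1 rose in limma and 0 fell, where 0.517% of all genes rose. It was Lyz2, a lysozyme of macrophages, with 7.07, 6.90 and 6.74 in shAtoh8 replicates 1, 2 and 3 against 6.32, 6.14 and 6.00 in shControl. The call stood just inside the threshold (limma adjusted p = 0.0499, and 0.0189 with the replicate block). The mean signal of the 5 ran from 5.38 to 5.52 in shAtoh8 and from 5.18 to 5.29 in shControl, while Ptprc, which defines leukocytes, read 3.70 in shAtoh8 and 3.59 in shControl. Differences in this list ran from -0.04 (Csf1r) to 0.75 (Lyz2), with a median of 0.11. Lyz2 was the only 1 of the 5 whose groups did not overlap. Of 6 acinar, 7 mesenchymal and 11 duct and epithelial markers 0 passed in limma, against 1, 0 and 3 at an unadjusted p under 0.05. With the replicate block 1 duct marker, Epcam, an epithelial adhesion protein, fell, where 2.75% of all genes fell. Its difference was -0.73 ± 0.13 (SE of the blocked fit, limma adjusted p = 0.0463, against 0.145 without the block), while its 1 other probe set was positive. The mean signal of the 11 duct and epithelial markers ran from 9.30 to 9.39 in shAtoh8 and from 9.40 to 9.501 in shControl, and that of the 6 acinar markers from 5.21 to 5.29 in shAtoh8 and from 5.10 to 5.18 in shControl. Neither pair of ranges overlapped. Gene by gene, the groups did not overlap for 4 of the 11 duct and 3 of the 6 acinar markers, beside 24.0% of all genes. That share is for single genes and is no background for a mean of several. The largest change in the duct list was that of Epcam, and in the acinar list that of Cela1 (0.37, limma adjusted p = 0.291). The list means were not taken without Epcam, Cela1 or Lyz2, so their separation is not read as a shift of whole lists. For the 7 mesenchymal markers the ranges overlapped, at 4.86 to 4.89 in shAtoh8 and 4.89 to 4.95 in shControl. The part of such markers in the Setd7 difference was not tested.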

How the data were processed

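Total RNA of 6 samples, 3 shAtoh8 and 3 shControl, was hybridised as biotin-labelled cRNA. The authors made log2 signals, 1 value per probe set, with RMA in the affy package, per the submitters' processing notes, which name no versions. Precision is limited by the number of arrays. Of 45101 probe sets, 64 controls were left out. The platform annotation gave 34945 probe sets 1 gene symbol, 932 several and 9160 none, and updating symbols through a RefSeq gene table (GRCm38.p6) by Entrez ID changed 0.

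limma 3.58.1 in R 4.3.3 (lmFit, eBayes) was fitted to all 45037 probe sets, with two-sided p-values adjusted by Benjamini-Hochberg over them and a threshold of 0.05. Exact permutation of 3 against 3 arrays cannot go below p = 0.1 and was not used. The fit was tested on simulated data.

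Arrays with the same replicate number deviated together from their group means (correlations of 0.407, 0.187 and 0.433, against -0.351 to 0.0292 between different numbers), so the numbers were taken to pair the arrays. Centring on group means ties these correlations to one another, so the contrast is in part arithmetic and no test of pairing. Alternatives were the replicate block, renewed quantile normalization, equal array medians, a brightness filter, another variance model, averaging over each gene's probe sets, and each array left out. Genes of the lists were named by a rule: up to 4 called genes per direction and list with the largest change, or, in lists with no call, the 2 of smallest p. Agpat5, Pfn2, Epcam, Cela1, Actb, Actg1, Ptprc, Neurog3, Smyd2, Cdc73 and the extremes of each enzyme class were named after their values were seen. So were Kmt2b, Ehmt2 and Csf1r. The members and lists were chosen with earlier results of these data known.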

Additional observations from a re-analysis of the deposited data

How the results depend on the processing

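The Setd7 difference kept its sign under all 12 alternatives run. It was -1.91 to -1.95 under renewed quantile normalization, equal array medians, the brightness filter, the other variance model and the replicate block (-1.93, which leaves a difference as it is and changes its error), -2.06 to -1.77 with 1 array left out, and -0.94 as the mean of its probe sets, where the dimmer set enters with equal weight by construction. Setd2 and Setd3 stayed positive under all 12. Setd1b and Setd5 changed sign under some, within the spread of their replicates. The count of listed genes that fell was 3, and 4 with the replicate block; it was 0 to 1 with 1 array left out, and 1 only without shAtoh8 replicate 2. The count that rose was 0 under every alternative. The paired fit raised the calls over all genes to 849, against 210 without the block, and brought Dennd1b, chosen here for its likeness to Setd7, under the threshold (adjusted p = 0.0225, against 0.0505 without the block); the calls it changed for Neurog3, Pfn2 and Epcam stand beside their values. The block also brought under it a dimmer probe set of Lifr (-0.71, limma adjusted p = 0.0441, against 0.123 without the block). The same held for a dimmer set of Dennd1b (-1.28, limma adjusted p = 0.0292, against 0.0743). Among the listed genes and the markers, on their main probe sets, the block changed no other call. Without shControl replicate 2, limma called 0 genes in all. Over the alternatives the adjusted p ran from 0.0359 to 0.138 for Psip1, from 0.0413 to 0.160 for Tbl1xr1 and from 0.0240 to 0.160 for Cfl2. Kdm5a, uncalled throughout, turned to -0.070 as the mean of its probe sets. The files hold no detection calls, so the dimmer probe sets, Setd7 1423003_at among them, limit what can be said of low signals.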
